A study of Mus musculus with 44 samples.

Results

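The cytoplasmic ribosomal protein genes encode the proteins of the 40S and 60S ribosomal subunits, and CTCF binding in and around them was described from 2 CTCF ChIP-seq peak lists of mouse embryonic stem cells (ESCs). The genes were taken by symbol from GENCODE vM21: *Rpl* or *Rps* plus a number with an optional a, x, y, l or digit, and *Rplp0* to *Rplp2*. The *Rps6k* kinase genes and *Rpl10l* were left out. This gave 78 of 20807 autosomal protein-coding genes: 40 large subunit genes, 29 small subunit genes, the 3 genes of the stalk proteins, and 6 paralogues whose symbols end in l or l and a digit. They lie on 18 of the autosomes, with 14 of them on chromosome 7 and none on chromosome 19. A further 4 genes with matching symbols are X-linked and were left out. A peak was assigned to a member when its summit lay in the gene or within 10 kb of it, which gave 185 of 59698 peaks in the *Setdb1* KO list and 137 of 44241 in the WT list.

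Both lists come from ESCs of the strain TT2 (C57BL/6/CBA F1). In the *Setdb1* KO cells the conditional *Setdb1* alleles had been deleted with 800 nM 4-hydroxytamoxifen (4-OHT) for 4 days, followed by harvest on day 6, and the WT cells were 1 clone. *Setdb1* encodes a methyltransferase that places H3K9me3, a mark of silent chromatin and of silenced repeats. Each condition has 1 library here, so there is no replicate error, and no test between *Setdb1* KO and WT cells is possible. The peak lists hold no expression values, so the stem cell identity and the loss of *Setdb1* could not be checked in them.

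CTCF is a zinc finger protein that binds a long, directional motif at insulators, loop anchors and some promoters. Ribosomal protein genes are short, are transcribed at a high rate in every growing cell, and typically begin within a run of pyrimidines. Their mRNAs have left many processed copies in the genome, so that reads from their exons can match several places. SINE B2 elements, a family of short mouse repeats, are known to carry a CTCF motif.

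For each peak the authors' lists give the fold enrichment over background and −log10 p, and from these the pileup was solved, which is the whole number of fragments over the summit. The depth was not given in the lists. Inferred from the lowest solved background and a fitted fragment length, it was 27.6 M tags in the *Setdb1* KO library and 27.4 M in the WT library. Over 40937 autosomal sites where exactly 1 *Setdb1* KO peak met 1 WT peak, the *Setdb1* KO pileup was 1.36 times the WT pileup at the median. A difference in ChIP efficiency between the libraries and a change in binding cannot be told apart in this ratio. The main member values are therefore given beside those of all autosomal sites or of all autosomal protein-coding genes. Some member values have no such background here. Intervals are 95% intervals, Wilson for shares and exact Clopper-Pearson for pileup ratios, and they cover counting error only. A site is shared when peaks of both lists overlap by at least 1 bp, and KO-only or WT-only otherwise.

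Nearly every ribosomal protein gene had CTCF nearby. In the *Setdb1* KO list 76 of 78 members had a peak within 10 kb, or 97.4% (91.1 to 99.3), and in the WT list 69 did, or 88.5% (79.5 to 93.8). Related lists had *Setdb1* KO shares of 92.1% (79.2 to 97.3) for ribosome biogenesis genes, 89.2% (79.4 to 94.7) for translation factors and 88.5% (79.5 to 93.8) for mitochondrial ribosomal protein genes, with intervals that overlap that of the members. Over all autosomal protein-coding genes the shares were 77.2% in the *Setdb1* KO list and 70.3% in the WT list. Members are short, with a median length of 3.40 kb against 17.6 kb for all genes, so a fixed flank gives them less room than other genes. Counted within 10 kb of a transcription start, a measure chosen after these values were seen, 94.9% of members and 66.8% of all genes had a *Setdb1* KO peak. *Rpl39l*, a paralogue of *Rpl39* used in male germ cells, and *Rps18* of the small subunit head had no peak in either list.

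The share of members with CTCF at the promoter also lay above that of all genes. A summit within 1 kb of a transcription start was found for 32 members in the *Setdb1* KO list, or 41.0% (30.8 to 52.1), and for 25 members in the WT list, or 32.1% (22.7 to 43.0). The shares over all genes were 25.0% in the *Setdb1* KO list and 19.9% in the WT list. Large subunit genes held such a peak in 20 of 40 cases in the *Setdb1* KO list, small subunit genes in 10 of 29, the stalk genes in 1 of 3 and the paralogues in 1 of 6. The intervals of the large and small subunit shares, 35.2 to 64.8% and 19.9 to 52.7%, overlap. A promoter peak in both lists was found for 24 members, or 30.8% (21.6 to 41.7), against 19.2% of all genes, and in the *Setdb1* KO list alone for 8, or 10.3% (5.29 to 19.0), against 5.75% of all genes. *Rps20* had one in the WT list alone, but the site is shared: its summit lies at 992 bp in WT cells and at 1043 bp in *Setdb1* KO cells, on either side of the 1 kb limit.

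Of the other lists of the translation machinery, ribosome biogenesis genes had the highest share. In the *Setdb1* KO list 30.8% of 78 mitochondrial ribosomal protein genes, 42.1% of 38 ribosome biogenesis genes and 21.5% of 65 translation factors had a promoter peak. In the WT list the shares were 26.9% of the mitochondrial genes, 36.8% of the biogenesis genes and 13.8% of the translation factors. In the *Setdb1* KO list the intervals of the ribosome biogenesis genes (27.9 to 57.8%) and of the translation factors (13.3 to 33.0%) both overlap that of the members (30.8 to 52.1%).

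**Figure D1:**
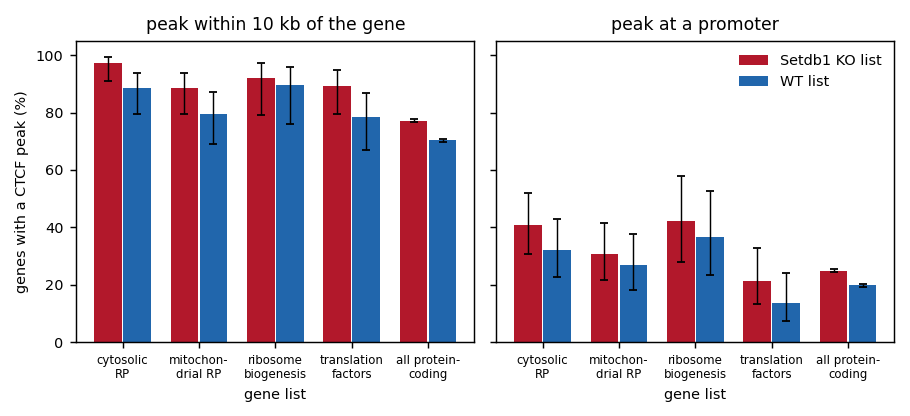
Share of genes (%) with a CTCF peak within 10 kb of the gene (left) or within 1 kb of a transcription start (right) in the Setdb1 KO and WT lists, for the 78 cytoplasmic ribosomal protein (RP) genes, 3 related lists and all 20807 autosomal protein-coding genes, with Wilson 95% intervals. The members stand at 97.4% and 41.0% in the Setdb1 KO list, against 77.2% and 25.0% of all genes.

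The strongest promoter sites mostly carry the CTCF motif, each in its own sequence. They are shown here because they are among the promoter sites with the highest pileups. Each line gives 40 bases read from the RefSeq assembly GRCm38.p6 on the strand of the motif, with the 20 bases of the motif in capitals and with the summit's distance from the nearest start, where minus is upstream.
*Rplp0*, -170 bp, chr5:115559277-115559316, plus strand: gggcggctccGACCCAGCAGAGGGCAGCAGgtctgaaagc
*Rpl36*, -102 bp, chr17:56613315-56613354, plus strand: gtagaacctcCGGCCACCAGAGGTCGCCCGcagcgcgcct
*Rps29*, -576 bp, chr12:69159729-69159768, minus strand: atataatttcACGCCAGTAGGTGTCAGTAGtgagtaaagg
*Rpl3*, 620 bp, chr15:80091259-80091298, minus strand: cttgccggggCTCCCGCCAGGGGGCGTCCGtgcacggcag
*Rpl5*, -20 bp, chr5:107900452-107900491, plus strand: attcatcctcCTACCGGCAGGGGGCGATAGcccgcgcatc
The matrix behind these calls was built from 1000 strong peaks away from the members, and a site has the motif when a stretch no more than 50 bp from the summit scores above 12.9 bits, which 0.971% of control windows 1 kb away passed. Between the 11 shared promoter sites with a motif outside repeats, a median of 39.0 of the 60 bases around the motif differed.

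At *Rpl5* the motif lies just before the start of transcription. RPL5 binds the 5S rRNA and carries it into the large subunit. The window from 250 bases before to 50 after the RefSeq start, GRCm38.p6 chr5:107900278-107900577 on the plus strand, shows the motif in capitals, its first base at position -66 from the start.
*Rpl5* promoter: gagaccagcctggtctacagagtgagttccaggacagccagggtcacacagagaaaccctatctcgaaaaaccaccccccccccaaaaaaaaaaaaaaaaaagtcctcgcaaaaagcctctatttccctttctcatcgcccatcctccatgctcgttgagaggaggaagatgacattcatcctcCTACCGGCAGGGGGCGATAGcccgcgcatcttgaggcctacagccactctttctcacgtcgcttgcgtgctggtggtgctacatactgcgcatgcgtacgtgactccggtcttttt
The *Rplp0* promoter, GRCm38.p6 chr5:115559217-115559516 on the plus strand, has its motif further upstream, from position -180.
*Rplp0* promoter: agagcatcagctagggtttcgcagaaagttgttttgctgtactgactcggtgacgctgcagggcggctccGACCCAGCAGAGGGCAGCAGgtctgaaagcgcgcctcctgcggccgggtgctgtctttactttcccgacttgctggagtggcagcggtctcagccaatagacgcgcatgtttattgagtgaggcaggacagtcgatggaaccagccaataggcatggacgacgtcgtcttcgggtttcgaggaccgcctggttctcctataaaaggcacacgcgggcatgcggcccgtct

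The 36 promoter sites of the *Setdb1* KO list lie within 1 kb of a start by definition. The median distance was 256 bp, 17 sites lay within 250 bp of the nearest start and 27 lay upstream of it. The nearest start can be that of an inner transcript, so some of the 27 lie within the gene. Among them are sites of *Rpl3* and *Rpl24*, 11092 and 3079 bp from the 5' end of the gene. There were 4 within 1 kb of a start of another protein-coding gene: sites of *Rpl3* (with *Syngr1*), *Rps24* (with *Polr3a*), *Rpl35* (with *Arpc5l*) and *Rpl18* (with *Fam83e*). By annotation 16 summits were intergenic, 11 intronic, 5 in a UTR exon, 2 in a coding exon and 2 in an exon of a noncoding transcript. The promoter sites were CpG-rich, with a median of 10.0 CpGs within 100 bp of the summit, against 6.00 at promoter sites of all genes and 2.00 at member sites outside promoters.

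Of the 10 members with the highest promoter pileups, 8 are described. *Rplp0*, which encodes the base of the ribosomal stalk, had 131 fragments in *Setdb1* KO cells and 105 in WT cells. Its ratio was 1.25 (0.958 to 1.63), and the gene lies on chromosome 5 beyond 110 Mb, a region given apart below. *Rpl36* had 111 and *Rps29* 109 fragments in *Setdb1* KO cells, against 98 for *Rpl36* and 72 for *Rps29* in WT cells. *Rps29* encodes a zinc-binding protein of the small subunit head.

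These leading sites were strong in both lists. The *Rpl3* site, 620 bp inside the gene whose protein reaches the peptidyl transferase center, had 102 fragments in *Setdb1* KO cells and 88 in WT cells. *Rps3a1* of the small subunit had 96 fragments in *Setdb1* KO cells and 81 in WT cells. *Rpl7l1*, a paralogue of *Rpl7* with a role in ribosome assembly, had 95 and *Rpl5* and *Rpl26* had 91 fragments each in *Setdb1* KO cells. Their WT pileups were 74 at *Rpl7l1*, 75 at *Rpl5* and 74 at *Rpl26*. Over these 8 members the ratio ran between 1.13 (0.855 to 1.50) at *Rpl36* and 1.51 (1.11 to 2.07) at *Rps29*, and all 8 intervals include 1.36. *Rps24* (77 fragments in *Setdb1* KO cells and 57 in WT cells) had its summit 1 bp after the start, and *Rpl10a* (63 in *Setdb1* KO cells and 51 in WT cells) on it. *Rpl38*, linked to the translation of certain *Hox* mRNAs in the mouse embryo, had 71 fragments in *Setdb1* KO cells and 72 in WT cells.

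**Figure D2:**
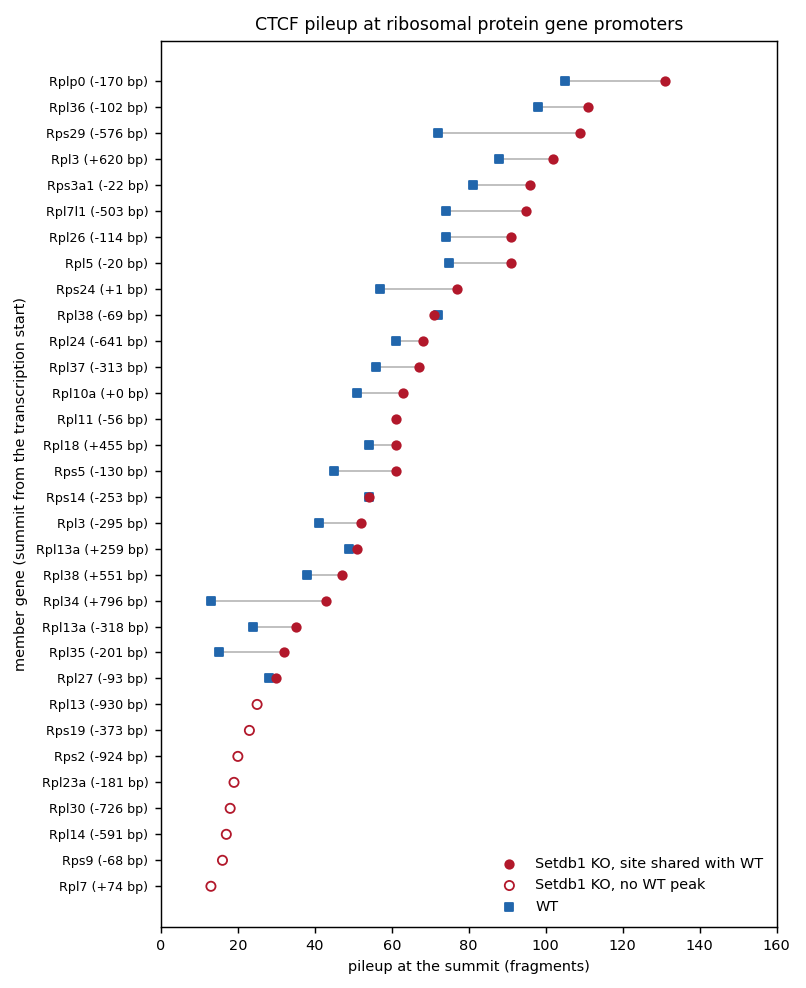
Pileup (fragments over the summit) at 32 of the 36 promoter sites of the Setdb1 KO list, with the WT pileup of the same site where 1 peak of each list pairs, ordered by the Setdb1 KO pileup; the label gives the gene and the distance of the summit from its start. The plotted shared sites run from 131 fragments at Rplp0 to 30 at Rpl27 in Setdb1 KO cells, and the 8 plotted sites with no WT peak lie between 25 and 13; Rpl11 is shared but 1 Setdb1 KO peak spans 2 WT peaks.

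The CTCF motif was found at 14 of the 36 promoter sites, or 38.9% (24.8 to 55.1), and at 91 of the 149 other member sites, or 61.1% (53.1 to 68.5). The shares over all genes were 45.5% at promoters and 58.8% outside them within 10 kb, so the members follow the same order. In 9 of the 14 promoter sites and 56 of the other 91, the motif lay on the strand of the gene. The strand was not counted over all genes, so whether members differ from them in this was not tested. The strongest promoter sites with no motif call were *Rps3a1*, *Rpl26*, *Rpl24* and *Rpl37*, with 96, 91, 68 and 67 fragments in *Setdb1* KO cells, and 81, 74, 61 and 56 in WT cells. The windows of *Rps3a1* and *Rpl37*, 50 bases to each side of the summit (in capitals) on the strand of the gene from GRCm38.p6, are shown because they have the highest and the lowest best score of these 4, 12.7 bits at *Rps3a1*, just under the threshold, and 1.94 bits at *Rpl37*.
*Rps3a1*, -22 bp, chr3:86142674-86142774, minus strand: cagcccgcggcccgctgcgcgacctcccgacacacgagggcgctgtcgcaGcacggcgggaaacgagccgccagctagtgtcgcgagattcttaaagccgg
*Rpl37*, -313 bp, chr15:5116282-5116382, plus strand: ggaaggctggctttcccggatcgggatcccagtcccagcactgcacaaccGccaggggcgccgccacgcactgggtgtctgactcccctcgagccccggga

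A pyrimidine run at the start, which the rule did not use, was more frequent among the member promoters than over all genes, though most members lacked it in this spelling. The letters CTTTCC, read on the strand of the gene from 20 bases before to 20 after the RefSeq start, were present in 10 of the 58 members with a promoter window, or 17.2%, and in 1.86% of 15687 protein-coding genes. On the other strand they were present in 0 of 58 members and 1.51% of all genes. They were present in 4 of 21 members with a *Setdb1* KO promoter peak and in 6 of 37 members without one, or 19.0% and 16.2%. At *Rpl38* the run begins on the base of the start. The 300-base windows held a median of 22 CpGs in members and 15 in all genes.

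The KO-only share of the peaks near members lay close to that near all genes. Of the 185 *Setdb1* KO peaks 50 were KO-only, or 27.0% (21.1 to 33.8), against 27.7% around all genes. Of the 137 WT peaks 3 were WT-only, or 2.19% (0.747 to 6.24), against 3.36% around all genes. The share was 9 of 36 at promoters, or 25.0% (13.8 to 41.1), and 41 of 149 outside promoters, or 27.5% (21.0 to 35.2), where all genes had 26.7% at promoters and 27.9% outside. At least 1 KO-only peak lay within 10 kb of 43 members, or 55.1% (44.1 to 65.7), against 43.0% of all genes, and at the promoter of 9 members, or 11.5% (6.19 to 20.5), against 7.67%. These shares depend on the threshold of the lists: when only peaks with a fold enrichment of 5 or more were kept the KO-only share of member peaks was 16.9%, and with lists of equal length 7.35%. The share around all genes was not computed at these settings, so the drop cannot be read as particular to the members.

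The KO-only promoter peaks were weak. *Rpl13* had 25 fragments in *Setdb1* KO cells and *Rps19* 23, followed by *Rps2* (20), *Rpl23a* (19) and *Rpl30* (18), with fold enrichments of 3.35 at *Rpl13*, 6.02 at *Rps19*, 4.32 at *Rps2*, 5.27 at *Rpl23a* and 3.59 at *Rpl30*. *Rps19* encodes a small subunit protein that is mutated in human Diamond-Blackfan anemia. Sites at *Rpl14* (17), *Rps9* (16) and *Rpl7* (13) had fold enrichments of 4.62 at *Rpl14*, 4.71 at *Rps9* and 4.20 at *Rpl7*. All 9 KO-only promoter peaks lie below the 30 fragments of the weakest shared promoter site in *Setdb1* KO cells, while shared promoter peaks of the WT list reach down to 13 fragments. Outside promoters the KO-only pileups ran from 11 to 39 fragments with a median of 17, and the shared ones from 15 to 166 with a median of 57.

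In the flanks, the highest fold enrichments of KO-only peaks were 8.47 at *Rpl15* (28 fragments), 7.91 at *Rpl41* (32), 7.80 at *Rpl37a* (26), 7.53 at *Rpl24* (23), 6.86 at *Rpl23* (39) and 6.25 at *Rpl6* (21). All of these are large subunit genes, which make up 40 of the 78 members. Counting gene, promoter and flanks, 26 of the 40 had KO-only peaks, or 65.0% (49.5 to 77.9). For small subunit genes it was 14 of 29, or 48.3% (31.4 to 65.6), an overlapping interval. Whether large subunit genes are favoured was not tested. For the *Rpl41* and *Rpl37a* peaks the nearest protein-coding gene was a neighbour. The *Rpl23* site lies downstream of the gene, 1.43 kb from its nearest annotated start, and has the highest pileup of the KO-only sites. *Rpl23*, whose human protein can bind MDM2, is also 1 of 7 members with *Setdb1* KO peaks and no WT peak within 10 kb, or 8.97% (4.42 to 17.4), against 7.33% of all genes. The others are *Rpl31*, *Rpl35a*, *Rpl9*, *Rps27a*, *Rps6* and *Rps9*, each with 1 peak of 14 to 19 fragments. The WT-only peaks had 20 fragments near *Rps15*, 13 near *Rps29* and 19 near *Rpl8*, and none lay at a promoter.

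KO-only sites around the members were often in repeats. Most of the 101 bases around the summit were repeat-masked at 28 of 50 KO-only sites, or 56.0% (42.3 to 68.8), and at 34 of 135 shared sites, or 25.2% (18.6 to 33.1). Around all genes the shares were 41.3% of KO-only and 24.6% of shared sites. The motif was present at 16 KO-only sites, or 32% (20.8 to 45.8), and at 89 shared sites, or 65.9% (57.6 to 73.4), against 35.7% of KO-only and 64.9% of shared sites around all genes. With up to 3 mismatches, a 75-base read would match 1 place at a median of 96.5% of the starts around KO-only sites and 100% around shared sites. The lowest share was 12.5% at a KO-only site and 33.5% at a shared site. At the repeat-masked KO-only sites whose sequences follow, it ran from 43.5% at the *Rpl13* promoter to 76.5% near *Rps27*. The authors judged uniqueness only among the best-matching places, so their mapping could keep more reads than this.

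Most of the repeat-masked KO-only sites with a motif share much of their sequence. Some are shown to make this visible, as 40 bases on the strand of the motif from GRCm38.p6 with the motif in capitals.
*Rpl13* promoter, KO-only, chr8:123101431-123101470, minus strand: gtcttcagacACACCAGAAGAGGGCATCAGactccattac
*Rpl14* promoter, KO-only, chr9:120570816-120570855, plus strand: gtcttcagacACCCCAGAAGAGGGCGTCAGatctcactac
*Rpl12* upstream, KO-only, chr2:32958719-32958758, minus strand: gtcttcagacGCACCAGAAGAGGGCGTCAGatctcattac
*Rps27* downstream, KO-only, chr3:90205062-90205101, plus strand: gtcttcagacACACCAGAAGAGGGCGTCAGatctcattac
*Rpl41* upstream, KO-only, chr10:128556514-128556553, plus strand: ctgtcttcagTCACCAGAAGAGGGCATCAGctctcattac
The *Rps27* and *Rpl12* sites, on different chromosomes, were the closest of 91 pairs and differed at 3 of the 60 bases around the motif. Over the 14 repeat-masked KO-only sites with a motif the median was 21.0 of 60 and the most 49. The *Rpl24* site was unlike the others, with 39 to 49 of 60 bases different. Within the motif the median was 3 of 20, against 9 of 20 among the unmasked promoter motifs above. The word CCAGAAGAGGGC, motif bases 4 to 15, stood in 11 of the 14. The reference marks repeats without naming their family, and the family was not assigned here.

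The word was counted within 50 bp of every summit on both strands, a choice made after the sequences were seen. It was present at 12 of 50 KO-only member sites, or 24.0% (14.3 to 37.4), and at 27 of 135 shared member sites, or 20.0% (14.1 to 27.5). The word was picked as the most common one at 14 of these same KO-only sites, 11 of which hold it. The KO-only member share is therefore set in large part by that choice and cannot be compared with the other shares. Around all genes it was present at 19.2% of KO-only, 14% of shared and 4.44% of WT-only sites. Shared member sites with the word had a median ratio of *Setdb1* KO to WT pileup of 1.44 (n = 26 sites), and those without it 1.27 (n = 104). The same order held over all autosomal shared sites, with 1.56 with the word and 1.34 without it. Among members, *Rpl36al* (73 fragments in *Setdb1* KO cells and 35 in WT cells), *Rpl10a* (70 in *Setdb1* KO cells and 37 in WT cells) and *Rpl21* (58 in *Setdb1* KO cells and 36 in WT cells) have such shared sites upstream. These examples do not stand for all shared sites with the word. Pileups lay closer together upstream of *Rpl26* (108 in *Setdb1* KO cells and 95 in WT cells) and *Rps16* (117 in *Setdb1* KO cells and 95 in WT cells). The same held upstream of *Rpl12* (76 in *Setdb1* KO cells and 62 in WT cells) and downstream of *Rpl8* (37 in each). *Rpl38* has a shared site with the word at its promoter, described above.

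**Figure D3:**
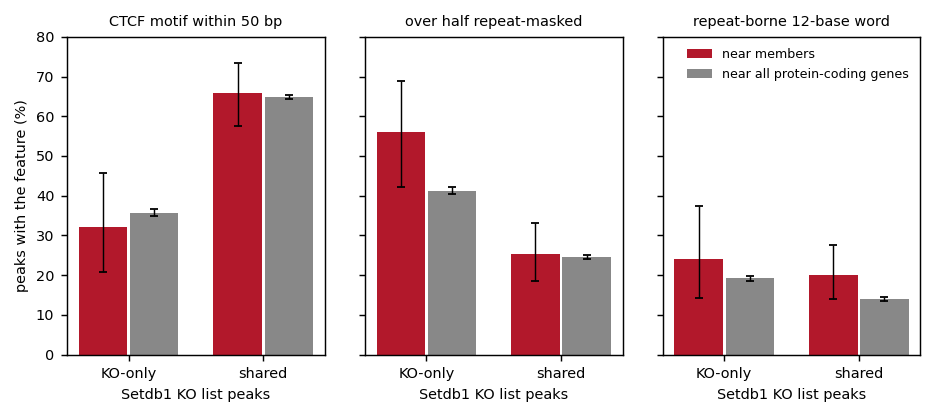
Share (%) of Setdb1 KO list peaks with a CTCF motif within 50 bp of the summit (left), with most of the 101 bases around it repeat-masked (middle) and with the 12-base word common in the repeat-borne motifs (right), for KO-only and shared peaks near the 78 members and near all autosomal protein-coding genes, with Wilson 95% intervals. The word was taken from KO-only member sites, which sets part of their share. Near members 56.0% of KO-only and 25.2% of shared peaks are repeat-masked, and 32% of KO-only and 65.9% of shared peaks have the motif.

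At sites bound in both conditions the ratio between the conditions was slightly lower at the members than over the genome. Over 130 paired member sites the pileups summed to 8332 fragments in *Setdb1* KO cells and 6423 in WT cells, a ratio of 1.30 (1.26 to 1.34), against 1.38 (1.37 to 1.38) over all autosomal shared sites. The ratio of sums was 1.31 (1.26 to 1.35) near translation factors, 1.37 (1.31 to 1.44) near ribosome biogenesis genes and 1.38 (1.33 to 1.43) near mitochondrial ribosomal protein genes, so the lower value was not particular to the members. The median ratio was 1.29, with quartiles of 1.14 and 1.53, against 1.36 over all autosomal shared sites and 1.35 over those near genes. The *Setdb1* KO pileup was the higher one at 117 of the 130 sites, or 90.0%, close to the 90.9% of all autosomal shared sites. The interval of the ratio lay above 1 at 30 sites, or 23.1%, against 31.8% of all autosomal shared sites.

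Member sites at promoters and within the genes had lower median ratios than those in the flanks. Over 26 promoter sites the median was 1.23 with quartiles of 1.14 and 1.35, and over 104 other member sites 1.32 with quartiles of 1.14 and 1.57. Of these others, the 9 within a gene had a median of 1.23 and a ratio of sums of 1.19 (1.04 to 1.35), and the 95 in the flanks a median of 1.33 and a ratio of sums of 1.32 (1.27 to 1.38). All promoter sites of the genome had a median of 1.29 and other sites near genes 1.36. The sums at member promoters were 1942 fragments in *Setdb1* KO cells and 1551 in WT cells, a ratio of 1.25 (1.17 to 1.34), and outside promoters 6390 fragments in *Setdb1* KO cells and 4872 in WT cells, a ratio of 1.31 (1.26 to 1.36). The intervals of all these ratios overlap. The background solved at promoter sites was 3.24 fragments in *Setdb1* KO cells and 3.29 in WT cells at the median.

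**Figure D4:**
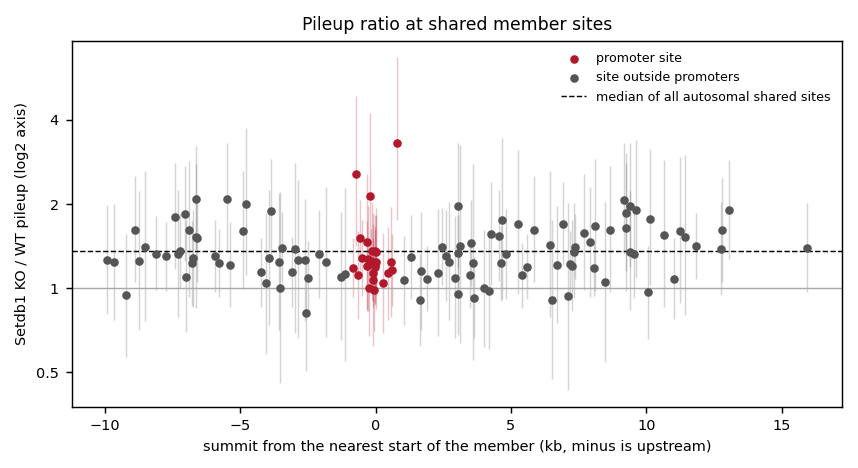
Ratio of the Setdb1 KO to the WT pileup (log2 axis) at 130 shared member sites against the distance of the summit from the nearest start of the member (kb, minus is upstream), with exact Clopper-Pearson 95% intervals; red points are promoter sites and the dashed line is the median of all autosomal shared sites, 1.36. Promoter sites have a median of 1.23, and those at Rpl34, Rpl35, Rps29 and Rpl13a, among the 5 highest of them, run from 3.31 to 1.46.

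A few sites stood apart. The interval lay above 1.36 at 3 of the 130 sites, or 2.31%, and below it at 4, or 3.08%, where 5.57% of all autosomal shared sites lay above and 2.31% below. *Rpl34* had the highest ratio: 43 fragments in *Setdb1* KO cells and 13 in WT cells, 3.31 times as many (1.75 to 6.70), at a UTR exon 796 bp from the start and with no motif.

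*Rpl36al*, a copy of the X-linked *Rpl36a* without introns, was also among the 3 sites above, with a ratio of 2.09 (1.38 to 3.22). *Rpl35* (32 fragments in *Setdb1* KO cells and 15 in WT cells, 2.13, 1.12 to 4.24) and *Rpl32* (67 in *Setdb1* KO cells and 32 in WT cells, 2.09, 1.35 to 3.30) were likewise among the 5 highest ratios, with intervals that include 1.36. When only peaks with a −log10 q of 5 or more were kept, 1 site rather than 3 lay above. The lowest ratio, 0.814, was upstream of *Rpl6*, with 35 fragments in *Setdb1* KO cells and 43 in WT cells. It was 0.905 at *Rpl4* (57 in *Setdb1* KO cells and 63 in WT cells) and 0.909 downstream of *Rpl6* (20 in *Setdb1* KO cells and 22 in WT cells). It was 0.925 at *Rpl23a* (74 in *Setdb1* KO cells and 80 in WT cells) and 0.938 at *Rps10* (15 in *Setdb1* KO cells and 16 in WT cells). All 5 lie outside promoters and their intervals include 1. The intervals upstream of *Rpl6* (0.506 to 1.30), at *Rpl4* (0.621 to 1.32) and at *Rpl23a* (0.665 to 1.29) lie below 1.36, so these sites are among those counted as below it. Whether any of the 5 lost binding was not tested.

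The number of sites varied from member to member. In the *Setdb1* KO list the median was 2.00 peaks within 10 kb and the mean 2.46, and in the WT list the median was 1.00 and the mean 1.82. Members with 1, 2 and 3 or more *Setdb1* KO peaks numbered 24, 22 and 30. *Rps10* had the most, with 7 in *Setdb1* KO cells and 6 in WT cells and with pileups of up to 115 fragments in *Setdb1* KO cells and 101 in WT cells. Upstream of *Rps10*, 1 long WT peak overlaps 2 *Setdb1* KO peaks, and none of its sites was KO-only. *Rpl13* and *Rps2* had 6 *Setdb1* KO and 4 WT peaks each, *Rpl13a* 5 in each list, and *Rpl14* 5 *Setdb1* KO and 3 WT peaks. RPL13A is released from the ribosome to silence certain mRNAs in human monocytes. *Rps2* and *Rpl3l* share part of their flanks, and 7 *Setdb1* KO peaks lay within reach of 2 members.

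The paralogues differed among themselves. *Rpl3l*, the form of *Rpl3* in striated muscle, had 5 *Setdb1* KO peaks and 2 WT peaks, with 3 KO-only. *Rpl7l1* had 4 *Setdb1* KO and 3 WT peaks with its strong promoter site. *Rpl22l1* (40 fragments in *Setdb1* KO cells and 24 in WT cells), *Rpl36al* (73 in *Setdb1* KO cells and 35 in WT cells) and *Rps27l* (79 in *Setdb1* KO cells and 43 in WT cells) had 1 shared site each, all outside promoters. *Rps27l* is a target of p53 in human cells.

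The KO-only shares of the upstream and downstream flanks had overlapping intervals. Of 62 upstream *Setdb1* KO peaks 19 were KO-only, or 30.6% (20.6 to 43.0), and of 71 downstream ones 15, or 21.1% (13.2 to 32.0). Both flanks together had 34 of 133, or 25.6% (18.9 to 33.6), the same as the 25.6% in the flanks of all genes. Upstream and downstream were not counted apart over all genes. For 106 of the 185 *Setdb1* KO peaks the nearest protein-coding gene was a member, and for the others it was a neighbour.

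Reads over member exons in part match more than 1 place when up to 3 mismatches are allowed. The share of 75-base starts that match the genome once with up to 3 mismatches had a median of 86.6% over the exons of the 78 members, with 39.3% at *Rplp1* as the lowest, against a median of 100% in introns and in the 1 kb upstream. In the 1 kb upstream the lowest share was 53.1%, at *Rpl37a*. The authors kept reads with 1 place among those with the fewest mismatches, so their mapping could keep more reads than these shares. The part of this in the counts was not tested.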

How the data were processed

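CTCF ChIP-seq libraries (1% formaldehyde for 10 min, 75-base reads) were aligned by the authors to mm10 (GRCm38) with Bowtie 1.2, keeping reads with 1 best-matching place. Duplicates were removed with Picard, and peaks were called per library with MACS2 2.1.0 against input. The deposited lists hold the authors' fold enrichment (a ratio), −log10 p and −log10 q, a score and the summit offset. The 2 lists were analysed, with no replicate. The second libraries and the other assays of the series were not analysed here.

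Pileup and background were solved from fold enrichment and −log10 p (100% of peaks, tolerance of 0.001 on −log10 p, genome size 2430000000). The members and lists were chosen with earlier results of these data known. Named were the 10 highest and 5 lowest promoter members, all KO-only and WT-only promoter peaks, 6 KO-only flank peaks, the 5 highest and 5 lowest ratios, the 5 members with most peaks, members without a peak, and the paralogues. Other named sites, among them *Rps24*, *Rpl37*, *Rpl38*, *Rps20* and the members with no WT peak, were chosen after their values were seen. Some members that these rules name are not reported here, though they stay in all counts and medians. Genes and starts came from GENCODE vM21, sequences and repeat masking from RefSeq GRCm38.p6. The motif was a 20-base matrix found de novo. Solving, overlap, motif search and uniqueness were tested on simulated data. Scripts ran in Python 3.11.15 with scipy 1.17.1, numba 0.67.0, pandas 2.3.3, numpy 2.4.6 and matplotlib 3.10.9.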

Additional observations from a re-analysis of the deposited data

How the results depend on the processing

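The counts of members with a peak within 10 kb or at a promoter, and the count of shared sites past the genome-wide ratio, kept within 1.5 times of the values above under all 19 alternatives tried for them. With starts of protein-coding transcripts only, 30 members had a promoter peak. The KO-only share of 27.0% became 16.9% when peaks had to reach a fold enrichment of 5, and 7.35% with lists of equal length, and lay between 22% and 33.0% under the other 8. The KO-only share around all genes was not computed under these alternatives. The median pileup ratio of 1.29 became 1.24 with a window of 5 kb, 1.33 with 50 kb and 1.24 where the nearest protein-coding gene is a member, and stayed between 1.27 and 1.31 under the other 7. Without chromosome 5 from 110 Mb on, which holds *Rpl21*, *Rpl6* and *Rplp0*, it was 1.29. The motif share of 56.8% became 75.7% at the 95th percentile of control windows and 10.8% at a stricter percentile, settings that change only the score cut-off. It was 44.9% within 100 bp of the summit, where the cut-off was set anew from control windows of that size. The cause of the shifts in the KO-only share and in the pileup ratio was not tested. No paired analysis was possible because each condition has 1 peak list. Counting error limits single sites: the interval of the ratio lay above 1 at 30 of 130 shared sites.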
